A study of Mus musculus with 18 samples.

Results

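The Fos and Jun genes encode the subunits of the transcription factor AP-1, and they are described here in cultured embryonic sensory neurons before and after their axons were cut. The 7 genes taken by name were Fos, Fosb, Fosl1 and Fosl2, the Fos group, and Jun, Junb and Jund, the Jun group, out of 47643 genes in the deposited count tables. All 7 were detected and passed the filter on low values, so 7 of 7 entered the tests over 13771 genes. Fosb passed that filter through injured libraries alone, and Fos had 2 control libraries above it. RNA came from dorsal root ganglia (DRG) of e13.5 CD-1 mouse embryos, dissociated and grown as spot cultures in medium with 5-fluorodeoxyuridine (FDU), a mitotic inhibitor. Control cultures were left uninjured and collected at DIV7 (days in vitro). In the other groups the axons were cut with a blade and the cultures were collected 1, 3, 8, 16 or 24 h post injury (HPI). Each of the 6 groups had 3 replicates, so 18 libraries were compared. All groups, control included, were grown with FDU, and only control had no axotomy. The control was collected at a single age, so time in culture after DIV7 and time after axotomy cannot be told apart. The sources do not say whether the 3 replicates of a group came from separate litters, so the p-values measure the spread between these cultures. Replicate number was a block in the main model, so this is the spread left after differences between replicate numbers were removed.

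AP-1 is a dimer of basic leucine zipper proteins that binds the DNA site TGANTCA. Fos proteins form stable dimers with Jun proteins but not with themselves, whereas Jun proteins also pair with each other. Fos, Fosb, Jun and Junb are immediate early genes, transcribed within minutes of growth factor, calcium or stress signals. Jun is phosphorylated by the JNK kinases and is known as a regeneration-associated transcription factor in injured sensory neurons, and Jund is known for high basal expression in many tissues.

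Depth ranged from 9478891 to 23082327 gene counts per library, and 3 counts corresponded to between 0.13 and 0.316 CPM (counts per 1000000 counts on genes, after TMM normalization in all values below), counting error only. The sensory neuron markers Prph, Tubb3, Avil, Pou4f1 and Isl1 were detected in every library, from 3722 to 4289 CPM for Prph, 1863 to 3257 CPM for Tubb3, 563 to 881 CPM for Avil, 249 to 351 CPM for Pou4f1 and 55.1 to 123 CPM for Isl1. The 8 glial, 5 fibroblast, 3 endothelial and 4 myeloid markers summed to at most 12.7, 9.98, 1.33 and 6.84 CPM in any library. The myeloid sum lay between 5.25 and 5.79 CPM at 16 HPI and between 5.22 and 6.84 CPM at 24 HPI, against 3.38 to 4.89 CPM in control, and its part in the results at those times was not tested. Of those 4 myeloid markers, Aif1 was at 1.93 to 4.85 CPM and Cd68 at 0.594 to 2.65 CPM. Ptprc and Csf1r, the other 2, were listed at 0 in at least 1 library. The 5 sensory neuron markers summed to 7999 to 8135 CPM in control, 6913 to 7712 CPM at 16 HPI and 7308 to 7484 CPM at 24 HPI. The part of this difference in the results was not tested. A residual rRNA list reached 50453.5 CPM in the highest 16 HPI library and 16704 CPM in the highest 3 HPI library, against 7174 to 10089 CPM in control. In bulk cultures, fewer cells of a type and less RNA per cell cannot be told apart.

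The proximal promoters of the 4 members that held a searched motif are shown for the position of those letters. Each line holds the 150 bases before the RefSeq start, read 5′ to 3′ on the gene's strand of GRCm38.p6, with the motif in capitals. They lie at chr12:85473740-85473889 on the plus strand for Fos, and on the minus strand at chr7:19310046-19310195 for Fosb, chr8:84978749-84978898 for Junb and chr4:95052223-95052372 for Jun.
Fos: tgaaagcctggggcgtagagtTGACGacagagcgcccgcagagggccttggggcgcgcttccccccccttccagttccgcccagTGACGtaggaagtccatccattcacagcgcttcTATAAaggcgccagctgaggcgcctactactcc
Fosb: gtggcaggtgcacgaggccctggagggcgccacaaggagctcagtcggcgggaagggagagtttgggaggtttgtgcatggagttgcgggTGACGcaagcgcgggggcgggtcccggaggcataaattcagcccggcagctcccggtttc
Junb: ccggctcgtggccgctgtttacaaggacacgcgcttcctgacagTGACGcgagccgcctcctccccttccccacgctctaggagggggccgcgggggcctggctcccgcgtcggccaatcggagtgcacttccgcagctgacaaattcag
Jun: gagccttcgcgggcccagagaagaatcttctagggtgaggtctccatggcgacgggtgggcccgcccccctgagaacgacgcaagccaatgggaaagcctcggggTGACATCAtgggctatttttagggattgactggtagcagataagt
Capitals mark TGACG, the core letters of the cyclic AMP response element (CRE), in Fos, Fosb and Junb, TATAA in Fos, and TGACATCA in Jun. Of the 250 bases searched before each start on both strands, Fos held TGACG at 129 to 125 and again at 66 to 62 bases before the start, Fosb at 60 to 56 and Junb at 106 to 102. TGACG was found in 17.8% of 32851 promoter windows of that length. TATAA lay 33 to 29 bases before the start of Fos and occurred in 22.8% of windows. TGACATCA, a motif added after the data were seen, lay 45 to 38 bases before the start of Jun and occurred in 2.93% of windows. TGANTCA, the full CRE TGACGTCA (which contains TGACG) and the CArG box were in no window of a member that was searched, and in 6.75%, 1.55% and 1.47% of all windows. The windows of Fosl2 and Jund held none of the 6 motifs. Their RefSeq starts lay 671 bases after and 1210 bases before the GENCODE starts, respectively. Fosl1 had no window here. A match describes the letters only.

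Before injury the family was dominated by Jund. Per exon length, the mean levels in control were 63.3 ± 4.40 RPKM (CPM per 1000 exon bases) for Jund (SD, n = 3 for all group values below) and 12.3 ± 2.90 RPKM for Jun. Fosl1 followed at 0.939 ± 0.244 RPKM, Fosl2 at 0.884 ± 0.0189 RPKM, Junb at 0.822 ± 0.146 RPKM, Fos at 0.471 ± 0.275 RPKM and Fosb at 0.0486 ± 0.0141 RPKM. The control libraries of Fosl1, Fosl2, Junb and Fos overlapped with those of their neighbours in this order, whereas those of Jund, Jun and Fosb did not overlap with any other member. Over the longest transcript instead of all exons, Fosl2 and Junb had 1.31 and 1.05 RPKM in control, above the 1.02 RPKM of Fosl1. Jund supplied 80.3% ± 3.85 and Jun 15.7% ± 3.70 of the summed RPKM of the 7 genes in control, and the 4 Fos genes together supplied 2.98% ± 0.388.

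**Figure D1:**
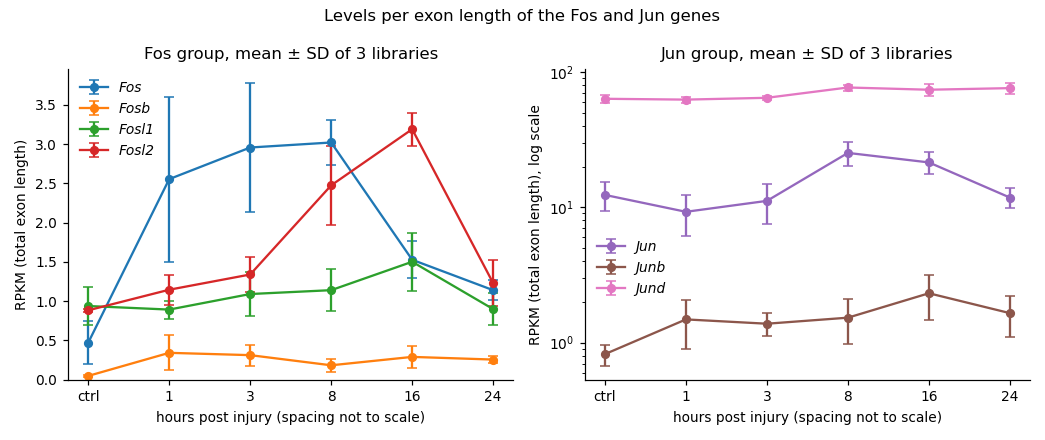
Mean RPKM ± SD (n = 3) of the Fos group on a linear axis and of the Jun group on a log axis, by hours post injury. By total exon length Fos led the Fos group at 1, 3 and 8 HPI (at 8 HPI Fosl2 led over the longest transcript), and Fosl2 led it at 16 HPI with 3.19 RPKM.

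The Fos share of the family was higher from 1 to 16 HPI. At 1, 3, 8 and 16 HPI the 4 Fos genes supplied 6.34% ± 1.77, 6.91% ± 1.75, 6.21% ± 0.694 and 6.27% ± 0.734 of the summed RPKM, and by 24 HPI the share was 3.80% ± 0.0678. The lowest injured library, at 24 HPI, held 3.74%, above the highest control library at 3.25%. The ratio of Jun-group to Fos-group RPKM was 32.9 ± 4.75 in control, and 15.6 ± 4.56, 14.0 ± 3.44, 15.2 ± 1.71, 15.1 ± 1.78 and 25.3 ± 0.467 over the injured groups in order of time. Both are descriptions of levels and no test was run on them. Within the Fos group, Fos was at 3.02 ± 0.286 RPKM and Fosl2 at 2.48 ± 0.506 RPKM at 8 HPI, and at 16 HPI Fosl2 was at 3.19 ± 0.211 RPKM and Fos at 1.53 ± 0.235 RPKM. Over the longest transcript the order at 8 HPI turned, with 3.37 RPKM for Fos and 3.67 RPKM for Fosl2.

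The question of the comparisons was which members changed after axotomy and when. A gene is said to have passed with an adjusted p under 0.05 by the quasi-likelihood test of edgeR (Benjamini-Hochberg adjusted over 13771 genes), and to be called where its log2 fold change was also beyond 1 in size. The 5 comparisons with control share the 3 control libraries. Fosb, which entered the tests through injured libraries alone, is counted among the called members below as a description. At 1 HPI, 2 of the 7 members were called, Fos and Fosb, against 0.0290% of all genes, and the same 2 had passed, against 0.276%. At 3 HPI the called members were again Fos and Fosb, against 0.0290%, and 3 had passed, against 0.189%. At 8 HPI, 4 were called (Fos, Fosb, Fosl2 and Jun), against 0.537%, and 6 had passed, against 7.68%. At 16 HPI, 4 were called (Fos, Fosb, Fosl2 and Junb), against 1.49%, and all 7 had passed, against 22.2%, with the pass of Fosl1 kept in 5 of 13 alternatives. At 24 HPI, 3 were called (Fos, Fosb and Junb), against 0.821%, and 5 had passed, against 15.0%. Every member that passed against control was higher after injury. Without the replicate number as a block, edgeR called 0, 1, 2, 4 and 0 members at 1, 3, 8, 16 and 24 HPI. The 4 calls at 16 HPI were kept in all alternatives that tested them, those without the residual rRNA and mitochondrial genes included. In the test of any difference over the 6 groups, 6 members passed, against 30.0% of all genes, and Fosl1 did not (adjusted p = 0.0799 by edgeR's quasi-likelihood test). The median log2 fold change of the 7 members was 0.37, 0.59, 1.03, 1.49 and 0.48 at 1, 3, 8, 16 and 24 HPI, and that of all genes tested lay within 0.01 of 0 at each time.

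**Figure D2:**
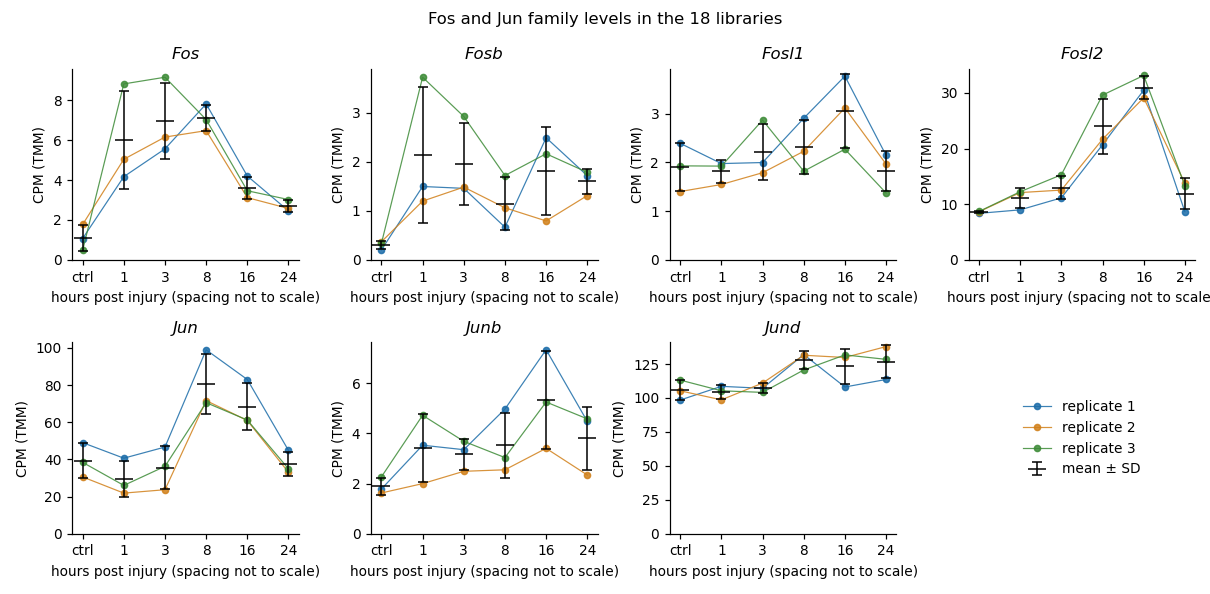
CPM in each of the 18 libraries (points, joined by replicate number) with the mean ± SD (black), by hours post injury, 1 panel per gene. Fos and Fosb were above control in all 15 injured libraries, Jun and Fosl2 were highest at 8 and 16 HPI, and Jund ranged only from 98.5 to 138 CPM.

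Fos (ENSMUSG00000021250.13, chr12:85473890-85477273 on the plus strand of GRCm38, 4 exons in its longest transcript) encodes the prototype of the group, and it rose at 1 HPI and was called at all 5 times. Its counts in control were 21, 24 and 10, or 1.07, 1.77 and 0.483 CPM. At 1 HPI it was at 4.17, 5.04 and 8.82 CPM, and at 3 HPI at 5.56, 6.16 and 9.16 CPM. All 6 of these libraries were above every control library. At 8 HPI it was at 7.82, 6.48 and 7.03 CPM, at 16 HPI at 4.20, 3.12 and 3.46 CPM, and at 24 HPI at 2.45, 2.58 and 3.02 CPM. Control and injured libraries did not overlap at any time. The log2 fold change against control was 2.52 ± 0.31 (SE) at 1 HPI (5.73-fold, adjusted p = 0.000745), 2.75 ± 0.30 at 3 HPI (adjusted p = 9.84e-05) and 2.79 ± 0.30 at 8 HPI (adjusted p = 5.73e-06) by edgeR's quasi-likelihood test. It was 1.79 ± 0.34 at 16 HPI (adjusted p = 0.000571) and 1.39 ± 0.35 at 24 HPI (adjusted p = 0.00994) by the same edgeR test. Replicate 3, with the lowest control value, gave the largest difference at 1 HPI, 3.91 on the log2 scale, against 1.86 and 1.45 in replicates 1 and 2. Without control replicate 3 the value at 24 HPI was 0.83, below the call.

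**Figure D3:**
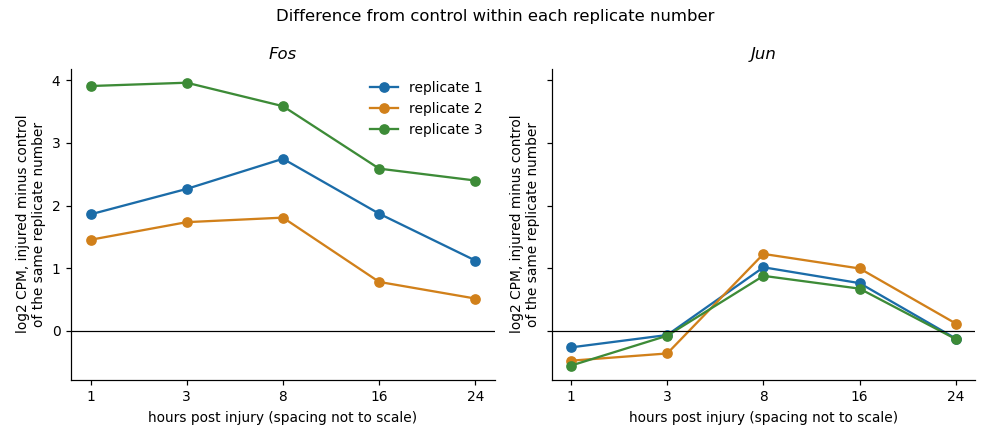
Log2 CPM of Fos and of Jun in each injured library minus the control of the same replicate number, by hours post injury. For Fos the 3 replicates differed in size at 1 HPI (1.45 to 3.91) and were all above 0 at every time, and for Jun they were below 0 at 1 and 3 HPI and above 0 at 8 and 16 HPI.

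Fosb (ENSMUSG00000003545.3, chr7:19302696-19310051, minus strand), an immediate early gene like Fos, was also called at all 5 times. Its control counts were only 4, 5 and 7 (0.204 to 0.369 CPM). It entered the tests through injured libraries alone, so its fold changes and calls are given as a description. The injured libraries held 1.497, 1.20 and 3.73 CPM at 1 HPI, 1.46, 1.48 and 2.93 CPM at 3 HPI, and 0.667, 1.06 and 1.72 CPM at 8 HPI. They held 2.49, 0.794 and 2.16 CPM at 16 HPI and 1.72, 1.31 and 1.79 CPM at 24 HPI. No injured library reached down to control, and replicate 3 was the highest at 1, 3, 8 and 24 HPI. The log2 fold change was 2.83 ± 0.41 at 1 HPI (adjusted p = 0.00415) and 2.75 ± 0.41 at 3 HPI (adjusted p = 0.00974) by edgeR's quasi-likelihood test. It was 1.94 ± 0.48 at 8 HPI (adjusted p = 0.0158), 2.60 ± 0.43 at 16 HPI (adjusted p = 0.000154) and 2.46 ± 0.43 at 24 HPI (adjusted p = 0.000571) by the same edgeR test. Without control replicate 3 the calls at 1, 3 and 8 HPI were lost, the 8 HPI call also without control replicate 1 or 8 HPI replicate 3, and the 3 HPI call also without 3 HPI replicate 2.

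**Figure D4:**
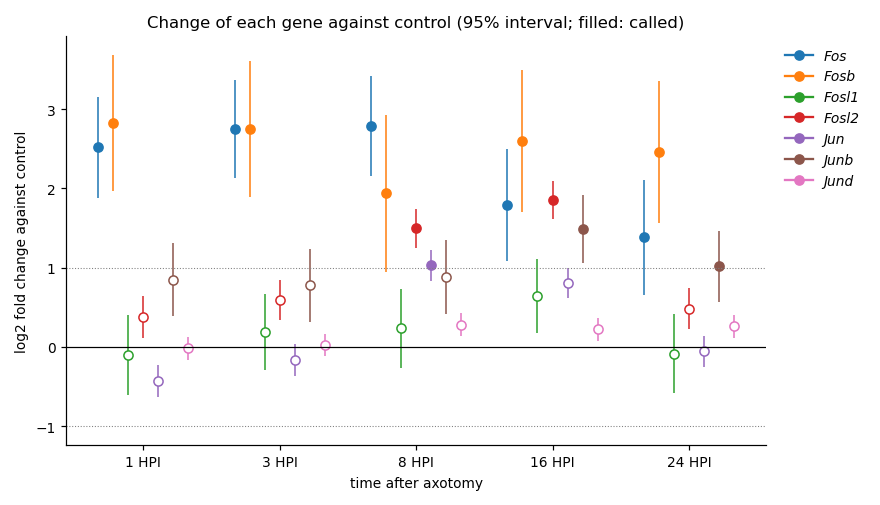
Log2 fold change of each member against control at 1, 3, 8, 16 and 24 HPI with its 95% interval from edgeR, filled where called. Fos and Fosb were called at all 5 times, Fosl2 at 8 and 16 HPI, Jun at 8 HPI, and Junb at 16 and 24 HPI.

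Fosl2 (ENSMUSG00000029135.10, chr5:32135801-32157842, plus strand), which encodes Fra-2, was called at 8 and 16 HPI. It was at 8.35, 8.64 and 8.69 CPM in control and at 8.98, 12.1 and 12.2 CPM at 1 HPI, where the difference of 0.37 ± 0.13 (log2) did not pass (edgeR adjusted p = 0.218). At 3 HPI it was at 11.1, 12.5 and 15.3 CPM and passed below the call (log2 fold change 0.59 ± 0.12, edgeR adjusted p = 0.0494). That pass was lost in 6 of 13 alternatives: without the block, with these 2 groups alone, and without control replicate 2 or 3 or 3 HPI replicate 2 or 3. At 8 HPI it was at 20.7, 21.7 and 29.6 CPM, and at 16 HPI at 30.5, 29.1 and 33.1 CPM. These 6 libraries lay above all control libraries and above all libraries of 1, 3 and 24 HPI. The log2 fold change was 1.49 ± 0.12 at 8 HPI (adjusted p = 1.92e-07) and 1.85 ± 0.11 at 16 HPI (adjusted p = 1.69e-09) by edgeR's quasi-likelihood test. At 24 HPI it was at 8.65, 13.8 and 13.3 CPM, with replicate 1 inside the control range and the other two above it, and it passed below the call (log2 fold change 0.48 ± 0.12, edgeR adjusted p = 0.0118). This pass was lost without the block, control replicate 3 or 24 HPI replicate 2.

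Fosl1 (ENSMUSG00000024912.5, chr19:5447547-5455946, plus strand), which encodes Fra-1 and overlaps exons of Ccdc85b on the other strand, was called at no time. It ranged from 1.40 to 2.39 CPM in control and from 2.27 to 3.77 CPM at 16 HPI, and overlapped control at every time. It passed against control only at 16 HPI, below the call (log2 fold change 0.64 ± 0.23, edgeR adjusted p = 0.0446). That pass was lost in 8 of 13 alternatives, namely in DESeq2 (adjusted p = 0.0887), with these 2 groups alone (edgeR adjusted p = 0.0561), without the block (edgeR adjusted p = 0.200), and without any 1 control library or 16 HPI replicate 1 or 2. At 1 HPI the 95% interval of its log2 fold change ran from -0.61 to 0.40, and at 24 HPI from -0.59 to 0.41. Ccdc85b was at 16.3 to 26.9 CPM, and since the strand setting of the counting is not given in the sources used here, the part of its reads in the Fosl1 counts was not tested.

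Jun (ENSMUSG00000052684.4, chr4:95049034-95052222, minus strand, 1 exon), whose product is the substrate that gave the JNK kinases their name, was called at 8 HPI. In control it was at 49.0, 30.6 and 38.4 CPM and at 1 HPI at 40.7, 21.9 and 26.0 CPM. The groups overlapped, but each replicate was lower than the control of its own number. The log2 fold change at 1 HPI was -0.43 ± 0.10 and did not pass by edgeR's quasi-likelihood test (adjusted p = 0.0636), and over its alternatives the adjusted p ran from 0.000635 (edgeR on these groups alone) to 0.9997 (edgeR without the replicate block), with 0.00537 by DESeq2. At 3 HPI Jun was at 46.7, 23.7 and 36.3 CPM, with a log2 fold change of -0.17 ± 0.10 that did not pass (edgeR adjusted p = 0.437). At 8 HPI it was at 99.0, 71.7 and 70.6 CPM, above every control library. The log2 fold change was then 1.03 ± 0.09 (2.04-fold, edgeR adjusted p = 1.46e-06), close to the threshold of the call. At 16 HPI Jun was at 83.0, 61.0 and 61.2 CPM and passed below the call (0.80 ± 0.09, edgeR adjusted p = 2.98e-06). At 24 HPI it was at 44.8, 33.1 and 34.9 CPM, within the control range, and its log2 fold change of -0.06 had a 95% interval of -0.25 to 0.14. Without control replicate 2 or 8 HPI replicate 2 the 8 HPI value lay below 1, with a lowest value of 0.96 over the alternatives. Without the block, the passes at 8 and 16 HPI were both lost (edgeR adjusted p = 0.120 and 0.0958).

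Junb (ENSMUSG00000052837.5, chr8:84974484-84978718, minus strand), whose product can dampen Jun activity at some promoters, was called at 16 and 24 HPI. It was at 1.78, 1.63 and 2.27 CPM in control and at 3.53, 2.00 and 4.72 CPM at 1 HPI, with overlapping groups. The log2 fold changes of 0.84 ± 0.22 at 1 HPI (adjusted p = 0.100) and 0.78 ± 0.22 at 3 HPI (adjusted p = 0.113) did not pass by edgeR's quasi-likelihood test. At 8 HPI, with 4.97, 2.55 and 3.04 CPM, it passed below the call (0.88 ± 0.23, edgeR adjusted p = 0.0198), a pass lost in 5 of 13 alternatives (without the block, with these 2 groups alone, and without control replicate 1 or 3 or 8 HPI replicate 1). At 16 HPI it was at 7.33, 3.40 and 5.25 CPM, all above control, and was called (1.49 ± 0.21, edgeR adjusted p = 2.68e-05). At 24 HPI, with 4.48, 2.34 and 4.58 CPM, it was called (1.02 ± 0.21, edgeR adjusted p = 0.00278). The 24 HPI call was lost in 4 of 13 alternatives: without control replicate 1, without 24 HPI replicate 3, without the block, and in DESeq2. Without the block the value was 0.99 and the pass was lost too (edgeR adjusted p = 0.236). In DESeq2 it was 0.99 and passed (adjusted p = 0.00151). The lowest value over the alternatives was 0.82. Junb overlaps exons of Prdx2 on the other strand, which was at 227 to 321 CPM, and the part of its reads in the Junb counts was not tested.

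Jund (ENSMUSG00000071076.5, chr8:70698949-70700616, plus strand), the most abundant member per exon length, was called at no time. It ranged from 98.5 to 113 CPM in control and from 98.6 to 111 CPM at 1 and 3 HPI. It was at 132, 131 and 120.6 CPM at 8 HPI, at 108, 129.8 and 132 CPM at 16 HPI, and at 114, 138 and 128 CPM at 24 HPI. It passed below the call at 8, 16 and 24 HPI, with log2 fold changes of 0.28 ± 0.07, 0.22 ± 0.07 and 0.26 ± 0.07 (adjusted p = 0.0179, 0.0252 and 0.0134 by edgeR's quasi-likelihood test). All 3 passes were lost without the block and without control replicate 1 or 2. That at 8 HPI was also lost without 8 HPI replicate 1, that at 16 HPI without 16 HPI replicate 2 or 3, and that at 24 HPI without 24 HPI replicate 2. The 16 HPI libraries overlapped control, and those of 8 and 24 HPI did not. At 1 HPI the 95% interval of its log2 fold change ran from -0.16 to 0.13.

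The steps between neighbouring times were tested within each gene, and the order of changes between genes was not tested. From 1 to 3 HPI no member and no other gene was called or passed (0% for both), 1035 of 13771 genes had an unadjusted p under 0.05 in edgeR's test, and 11 genes, none of them a member, passed in DESeq2. From 3 to 8 HPI Jun rose by 1.19 ± 0.09 on the log2 scale (edgeR adjusted p = 1.30e-07), the 1 member called, against 0.189% of genes. Fosl2 also passed (0.90 ± 0.11, edgeR adjusted p = 2.59e-05), so 2 members passed, against 2.30%. The Jun pass was lost without the block (edgeR adjusted p = 0.0795). Over the same step the log2 change of Fos was 0.04, with a 95% interval of -0.40 to 0.49. Fosb was lower at 8 than at 3 HPI in all 3 replicates, at -0.81 ± 0.32, and did not pass (edgeR adjusted p = 0.254).

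From 8 to 16 HPI Fos fell by 1.00 on the log2 scale, in 3 of 3 replicates (edgeR adjusted p = 0.00748), and was the 1 member called, against 0.937% of genes. This call sat at the threshold and was kept in 5 of 12 alternatives. Fosl2 rose by 0.36 ± 0.10 and Junb by 0.60 ± 0.19 (edgeR adjusted p = 0.0203 and 0.0370), so 3 members passed, against 15.2%. The Junb pass was lost in 6 of 13 alternatives (DESeq2, no block, and without 8 HPI replicate 2 or 3 or 16 HPI replicate 1 or 2), and that of Fosl2 in 4 (no block, and without 8 HPI replicate 1 or 2 or 16 HPI replicate 1). From 16 to 24 HPI Fosl2 fell by 1.37 on the log2 scale (edgeR adjusted p = 3.03e-07), the 1 member called, against 0.508% of genes. Jun fell by 0.86 and Fosl1 by 0.73 (edgeR adjusted p = 5.58e-06 and 0.0410), so 3 passed, against 9.82%. The Fosl1 pass was lost in 6 of 13 alternatives (DESeq2, no block, and without 16 HPI replicate 1 or 2 or 24 HPI replicate 1 or 3). That of Jun was lost without the block (edgeR adjusted p = 0.173). These falls were seen in 3 of 3 replicates each, and the 16 and 24 HPI libraries did not overlap for any of the 3 genes.

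The other basic leucine zipper genes that can pair with Fos or Jun had 8 of 14 members tested. None passed at 1 or 3 HPI in edgeR, with 1 and 2 at an unadjusted p under 0.05, or in DESeq2 (0 at both times). Atf3, a stress-induced factor that marks injured sensory neurons, was at 13.49 ± 5.53 CPM in control, 64.5 ± 1.39 CPM at 8 HPI and 118 ± 3.46 CPM at 16 HPI. It was higher by 2.29 ± 0.22 at 8 HPI and 3.16 ± 0.21 at 16 HPI on the log2 scale (adjusted p = 1.82e-06 and 4.11e-09 by edgeR's quasi-likelihood test), and 1.19 ± 0.22 at 24 HPI (edgeR adjusted p = 0.00110). Maff, a small Maf factor, was called at 8 HPI (1.13 ± 0.12, edgeR adjusted p = 5.91e-06). So 2, 1 and 1 of the 8 were called at 8, 16 and 24 HPI, against 0.537%, 1.49% and 0.821% of all genes. The median of the 8 was 0.23 at 8 HPI, against 0.00 for all genes.

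Other immediate early genes had 8 of 14 members tested. Arc, a synaptic activity gene, was called at all 5 times, at 1 and 3 HPI against 0.0290% of all genes. Its control mean was 0.983 CPM, so it could enter the tests through injured libraries alone, and its fold changes and calls are given as a description. Its log2 fold change at 1 HPI was 1.24 ± 0.23 (edgeR adjusted p = 0.0260), and the highest was 2.34 ± 0.21 at 16 HPI (edgeR adjusted p = 1.31e-07). It was the only tested gene of this list that passed at 1 or 3 HPI in edgeR, and 4 of the 8 had an unadjusted p under 0.05 at each of these times. In DESeq2, which left 5874 and 5340 genes without an adjusted p at 1 and 3 HPI, 0 of the 8 passed at either time. At 8 HPI 6 of the 8 were called, against 0.537%, among them the zinc finger factor Egr1 (2.14 ± 0.21, edgeR adjusted p = 2.02e-06), Btg2 (1.91 ± 0.20, edgeR adjusted p = 3.60e-06) and Dusp1, a phosphatase of the MAP kinases (1.64 ± 0.12, edgeR adjusted p = 4.08e-08). At 16 HPI 5 were called, against 1.49%, and at 24 HPI 2, Arc and Ier5, against 0.821%. Ier5, at a mean of 0.884 CPM in control, has the same limit as Arc, and its calls are given as a description. In order of time, the median log2 fold change of the 8 was 0.31, 0.33, 1.54, 1.20 and 0.51.

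**Figure D5:**
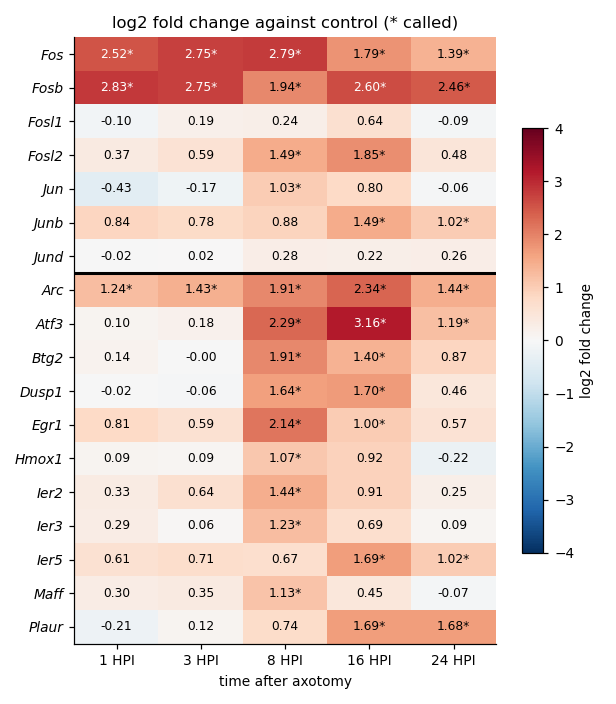
Log2 fold change against control of the 7 members (top) and of the called genes among the dimer partners, target genes and other immediate early genes (below), with an asterisk where called. At 1 and 3 HPI only Fos, Fosb and Arc carry an asterisk in this plot.

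The upstream kinases and scaffolds of the JNK, ERK and p38 pathways were all tested, 16 of 16, and none was called at any time. In edgeR none passed at 1, 3 or 8 HPI, where 2, 0 and 2 had an unadjusted p under 0.05, and in DESeq2 0 passed at these times. At 16 HPI Map3k12 (DLK, a kinase of axon injury signalling) and Mapk3 passed below the call, at -0.21 and -0.15 on the log2 scale, so 2 of 16 passed, against 22.2%. At 24 HPI the scaffold gene Mapk8ip3 passed below the call, with a log2 fold change of -0.19, 1 of 16 against 15.0%. From 8 to 16 HPI, Map3k1 passed at 0.41 ± 0.10, Map2k2 at -0.19 ± 0.05 and Map3k12 at -0.18 ± 0.06 (edgeR adjusted p = 0.00941, 0.0178 and 0.0420), 3 of 16 against 15.2%. From 16 to 24 HPI Map3k1 passed at -0.37 ± 0.10 (edgeR adjusted p = 0.0175), 1 of 16 against 9.82%. These 5 genes were named after their values were seen. Of the 8 genes for AP-1 messenger and protein turnover, 6 were tested and none passed in any of the 9 comparisons by edgeR's quasi-likelihood test or by DESeq2. At most 2 of the 6 had an unadjusted p under 0.05 in any comparison.

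The genes whose log2 CPM over the 18 libraries was most like that of each member are given as a description, with Pearson's r after the batch was removed. The points share libraries and depth. For Fos they were Blmh (0.84), Eif3j2 (0.81) and Cdv3 (0.81), and for Fosb Psmc1 (0.86), Mocs2 (0.86) and Dnaaf2 (0.83). For Fosl1 they were Arid4b (0.90), Tmbim1 (0.85) and Fam118a (0.84), and for Fosl2 Hspa5, Taf5 and Pnrc2 (0.95 each). For Jun they were Plat (0.95), Zbtb21 (0.93) and Dusp1 (0.93), for Junb Dusp5 (0.91), Panx1 and Ypel5 (0.87 each), and for Jund Iqcc, Arih2 (0.88 each) and Fbxw11 (0.87). With the batch left in, 20 of these 21 values were lower, from 0.0068 for Fosb with Mocs2 to 0.93 for Jun with Plat, and that of Junb with Ypel5 was 0.87. Within the family, r ran from -0.099 for Jun with Fosb to 0.83 for Jun with Fosl2. It was 0.75 for Fos with Fosb, 0.72 for Fosb with Junb and 0.13 for Fos with Jun, pairs picked by no rule set beforehand. Where the batch was left in, r was 0.65 for Jun with Fosl2, 0.71 for Fos with Fosb, 0.68 for Fosb with Junb and 0.10 for Fos with Jun.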

How the data were processed

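RNA of 18 libraries was measured by RNA sequencing, and the deposited values are raw counts per gene without normalization. According to the methods and the submitters' processing notes, the authors trimmed reads with cutadapt, aligned them to mm10 with STAR and counted them on genes. The methods name featureCounts, the notes name HTSeq, and the 5 closing entries of each table, which held 25.2% to 33.2% of all counts and were left out, carry HTSeq names. The labels name Ribo-Zero depletion of rRNA and SMARTer cDNA synthesis, so transcripts without a poly(A) tail can be present. The methods name a different reverse transcription kit, High Capacity cDNA, and which was used for these libraries was not settled. Strandedness of the counting is not given in the sources used here.

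Symbols, positions and exon lengths came from GENCODE vM21 (GRCm38), which matched 47224 of 47643 identifiers, 39106 with the same version. Mrtfa and Mrtfb were matched through their older symbols. The 13771 genes that exceeded 1 CPM in 3 or more libraries were kept. In edgeR 4.0.16 (R 4.3.3) the 18 libraries entered 1 quasi-likelihood model with TMM factors, group and replicate number, and 9 comparisons and the time course were tested two-sided with Benjamini-Hochberg adjustment over all genes tested. CPM used TMM effective library sizes, and RPKM also the total exon length. Log2 CPM for Pearson's r had a prior count of 2.

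The replicate numbers paired the samples. After group means were removed, 45 pairs with the same number correlated at a mean r of 0.619 (0.484 to 0.765), and 90 pairs with different numbers at -0.308. With group means removed, the values of the 3 replicates of a group sum to 0. The mean for different numbers therefore largely follows from that for the same number and adds no separate support. No 2 libraries were identical. On simulated counts for 8 HPI against control, edgeR recovered 198 of the 200 genes given a 3-fold change and made 0 false calls over 13490 genes. The changed genes were drawn from those with a mean over 1 CPM, and the counts from the dispersions of the same fit. The simulation was not set to the low control counts of Fos and Fosb, so their calls were not tested by it. Alternatives were DESeq2 1.42.0 (size factors in edgeR, and its own Wald test), a filter of 10 counts in total or of over 1 CPM in all 18 libraries, no block, the 2 compared groups alone, residual rRNA and mitochondrial genes left out, and single libraries left out. For a comparison of 2 groups, each library of those groups was left out in turn, not the libraries of the other groups. For RPKM the alternatives were the longest transcript and library totals as depth, and for r the batch left in. The genes named are all members, the called genes of each list (at most 4 a comparison) and the 3 genes most like each member. The members and lists were chosen with earlier results of these data known. Promoter sequences are from RefSeq on GRCm38.p6, where 6 of 7 members matched. A comparison of the proteins was not run, and 1 marker of the sensory neuron list is not reported here.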

Additional observations from a re-analysis of the deposited data

Results flagged for a closer look

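The differences between neighbouring time points are differences between effects against the same control, and 3 of them were past the call by the quasi-likelihood test of edgeR, Benjamini-Hochberg adjusted. Jun was higher at 8 than at 3 HPI by 1.19 on the log2 scale (adjusted p = 1.30e-07, edgeR), in 3 of 3 replicates. Fos had a log2 change of -1.002 from 8 to 16 HPI (adjusted p = 0.00748, edgeR), in 3 of 3 replicates. Fosl2 had a log2 change of -1.37 from 16 to 24 HPI (adjusted p = 3.03e-07, edgeR), in 3 of 3 replicates. Each group had 3 libraries, too few for a check of single libraries that stand far from the others.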

How the results depend on the processing

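Of 217 alternative values for the 18 called results, 189 kept the call and 0 changed direction. Of 571 alternative values for the 45 results that were not called, 545 kept direction and side of the threshold and 25 changed direction, each with 1 library left out and each for a change that did not pass. The numbers of members called or changed are given below by alternative, and the cause of each difference was not tested unless stated.

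Without the replicate block, which ignores the pairing of the samples by number, the number called was 0, 1, 2 and 0 at 1, 3, 8 and 24 HPI, and 0 from 3 to 8 HPI and from 8 to 16 HPI. Over the time course 3 members (Fos, Fosl2 and Jun) passed without the block. The count was the same as with the block at 16 HPI (4), from 1 to 3 HPI (0) and from 16 to 24 HPI (1). The filter of over 1 CPM in all 18 libraries left 5 members, without Fos and Fosb, and called 0, 0, 2, 2 and 1 of them at 1, 3, 8, 16 and 24 HPI, and 0 from 8 to 16 HPI. The DESeq2 Wald test called 0 at 1 HPI, 0 at 3 HPI and 0 from 8 to 16 HPI, and 2 at 24 HPI, without Junb. At 1 HPI its independent filtering left Fos and Fosb with no adjusted p (unadjusted p = 2.34e-10 and 7.41e-09 in the DESeq2 Wald test), and so it did at 3 HPI. From 8 to 16 HPI, 0 members were called with the filter of 10 counts in total and with the 2 compared groups alone.

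With each library of the 2 compared groups left out in turn, the number called ranged from 1 to 2 at 1 HPI, from 1 to 2 at 3 HPI, from 3 to 4 at 8 HPI, from 2 to 3 at 24 HPI and from 0 to 1 between 8 and 16 HPI. Over the time course, 6 to 7 members passed in the fits with 1 library left out. The Fos call between 8 and 16 HPI was lost without 8 HPI replicate 1, 16 HPI replicate 2 or 16 HPI replicate 3. The log2 fold changes that changed sign ranged over the same fits as follows. Against control, Jund ranged from -0.093 to 0.045 at 1 HPI and from -0.0047 to 0.076 at 3 HPI, and Fosl1 from -0.14 to 0.40 at 3 HPI and from -0.24 to 0.075 at 24 HPI. From 1 to 3 HPI, Fosb ranged from -0.23 to 0.28, Fosl1 from -0.025 to 0.50, Junb from -0.19 to 0.16 and Jund from -0.022 to 0.12. From 3 to 8 HPI, Fos ranged from -0.14 to 0.22, Fosl1 from -0.17 to 0.38 and Junb from -0.14 to 0.37. Later, Jund ranged from -0.12 to 0.021 from 8 to 16 HPI and from -0.033 to 0.10 from 16 to 24 HPI, and Fosb from -0.36 to 0.27 from 16 to 24 HPI.

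Fosb had 4 to 7 counts in the control libraries, and 8 HPI replicate 2 was the shallowest library with 9478891 counts.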

Other observations

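Textbook target genes of AP-1 had 7 of 16 members tested. Hmox1, the 1 gene of the 7 called at 8 HPI (against 0.537% of all genes), which encodes a haem-degrading enzyme, was at 21.3 ± 5.55 CPM in control and at 43.8 ± 7.14 CPM at 8 HPI (SD, n = 3), with a log2 fold change of 1.07 ± 0.11 (SE, adjusted p = 2.02e-06 by edgeR's quasi-likelihood test). From 16 to 24 HPI it fell by 1.15 on the log2 scale (edgeR adjusted p = 1.53e-06). Plaur, the urokinase receptor gene, was at 0.361 ± 0.355 CPM in control, 1.18 ± 0.492 CPM at 16 HPI and 1.19 ± 0.573 CPM at 24 HPI, and was called at both times, 1 of 7 against 1.49% and 0.821% of all genes (log2 fold changes 1.69 ± 0.40 and 1.68 ± 0.39, edgeR adjusted p = 0.00368 and 0.00536). With so low a control level it could enter the tests through injured libraries alone, so its fold changes are given as a description. None of the 7 passed at 1 or 3 HPI in edgeR or DESeq2, with 0 at an unadjusted p under 0.05 in edgeR. The median log2 fold change of the 7 was 0.21 at 16 HPI, against 0.00 for all genes.

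The 12 factors that bind the Fos and Jun promoters were all tested and none was called against control. At 16 HPI 4 passed higher, Crem (0.84 ± 0.14, edgeR adjusted p = 0.000140), Srf (0.27 ± 0.08, edgeR adjusted p = 0.0157), Elk4 and Mef2a, and 1 passed lower, Mrtfb (-0.21 ± 0.06, edgeR adjusted p = 0.0200), so 5 of 12 passed, against 22.2% of all genes. At 8 HPI Mef2a passed (0.16 ± 0.05, edgeR adjusted p = 0.0299), 1 of 12 against 7.68%. At 24 HPI Mrtfb (-0.38 ± 0.06, edgeR adjusted p = 0.000466) and Crem (0.49 ± 0.14, edgeR adjusted p = 0.0213) passed, 2 of 12 against 15.0%. These 5 were named after their values were seen. In the residual rRNA list, 4 of the 5 tested genes were called higher at 16 HPI, against 1.49% of all genes, and 0 at the other times against control. The 16 HPI libraries differed widely, with CT010467.1 at 9412 ± 15127 CPM (SD, n = 3). The sum of the list ran from 9522 to 50453.5 CPM at 16 HPI, so its lowest library lay within the control range of 7174 to 10089 CPM.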
